A study of Rattus norvegicus with 12 samples.

Results

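Glutathione and antioxidant enzymes were followed in RNA of rat joint tissue through 10 genes: Gclc, Gclm, Slc7a11, Gpx1, Gpx3, Gpx4, Cat, Sod2, Sod3 and Nqo1. The genes were taken by symbol from the authors' 3 full tables, which together list 23144 genes, and all 10 were found and measured in every library. The 12 libraries fall into 3 groups of 4, labelled treatment, model and sham. By the series title, the model is of knee osteoarthritis and the treatment is acupuncture around the knee. The labels name the tissue as joint, and give neither the strain, sex and age of the rats, nor how the model was made, nor how long treatment lasted. Nor do they state that libraries of a group come from different rats, so a p-value here rests on library-to-library spread, part of which may be technical.

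Glutathione is a small thiol that cells make from glutamate, cysteine and glycine and use to reduce peroxides and to conjugate reactive compounds. Its first and rate-limiting step is carried out by glutamate-cysteine ligase, built of the catalytic subunit Gclc and the modifier subunit Gclm, and Slc7a11 imports the cystine that supplies the cysteine. Glutathione peroxidases and catalase (Cat) remove peroxides, while the superoxide dismutases Sod2 (mitochondria) and Sod3 (outside the cell) turn superoxide into hydrogen peroxide. Nqo1 reduces quinones. In joints, chondrocytes and synovial cells carry this system, and red cell precursors and white cells are also known to be rich in peroxidases and catalase. Many of these genes are known targets of the transcription factor Nrf2, encoded by Nfe2l2, which binds antioxidant response elements.

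The promoter windows of the 5 genes with a call in the treatment against model comparison or a partner subunit of one, Gclm, Gclc, Sod2, Cat and Nqo1, are shown because they include genes that rose and genes that fell in that comparison. Each window runs from 250 bases before to 50 bases after the RefSeq gene start, 5′ to 3′ on the strand of the gene, in the build GRCr8. That build differs from mRatBN7.2, to which the measurements refer. Capitals mark a match, on either strand, to the core of the antioxidant response element (TGACNNNGC), to an AP-1 site (TGANTCA) or to a CCAAT box (CCAAT).

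Gclm (chr2:213031885-213032184, + strand): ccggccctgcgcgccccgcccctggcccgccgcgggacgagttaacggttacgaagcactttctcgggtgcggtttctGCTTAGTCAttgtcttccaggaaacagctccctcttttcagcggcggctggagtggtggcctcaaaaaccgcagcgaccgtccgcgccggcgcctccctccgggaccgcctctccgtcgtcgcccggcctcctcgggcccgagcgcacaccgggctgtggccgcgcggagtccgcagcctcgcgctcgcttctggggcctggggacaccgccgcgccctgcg

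Gclc (chr8:87510226-87510525, + strand): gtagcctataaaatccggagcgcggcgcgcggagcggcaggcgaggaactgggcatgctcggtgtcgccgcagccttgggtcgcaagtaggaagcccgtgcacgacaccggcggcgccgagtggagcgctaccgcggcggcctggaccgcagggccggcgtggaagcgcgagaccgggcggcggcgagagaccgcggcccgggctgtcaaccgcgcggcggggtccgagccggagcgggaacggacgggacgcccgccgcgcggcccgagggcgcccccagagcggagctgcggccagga

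Sod2 (chr1:50050119-50050418, - strand): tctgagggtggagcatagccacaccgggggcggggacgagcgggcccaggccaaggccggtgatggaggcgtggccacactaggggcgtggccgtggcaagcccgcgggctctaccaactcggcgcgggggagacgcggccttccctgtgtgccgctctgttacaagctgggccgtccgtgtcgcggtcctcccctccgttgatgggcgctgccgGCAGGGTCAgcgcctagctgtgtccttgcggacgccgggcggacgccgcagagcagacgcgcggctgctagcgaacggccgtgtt

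Cat (chr3:110329477-110329776, - strand): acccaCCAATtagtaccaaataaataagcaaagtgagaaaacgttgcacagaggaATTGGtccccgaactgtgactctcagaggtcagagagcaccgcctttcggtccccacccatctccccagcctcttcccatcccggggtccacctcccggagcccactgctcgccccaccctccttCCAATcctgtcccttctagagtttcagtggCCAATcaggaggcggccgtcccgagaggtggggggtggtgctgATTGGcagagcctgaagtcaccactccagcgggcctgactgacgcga

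Nqo1 (chr19:52220218-52220517, - strand): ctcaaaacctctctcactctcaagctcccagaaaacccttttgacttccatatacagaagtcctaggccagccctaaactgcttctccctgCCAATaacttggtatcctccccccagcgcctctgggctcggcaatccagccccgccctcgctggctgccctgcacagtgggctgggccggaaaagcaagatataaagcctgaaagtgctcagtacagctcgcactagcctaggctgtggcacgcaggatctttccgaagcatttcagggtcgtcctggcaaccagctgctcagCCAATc

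Of the 10 genes, 9 had a window in the RefSeq promoter table and Sod3 is named only. The core of the antioxidant response element was found on the opposite strand in Gclm, as TGACTAAGC with its leftmost base at position -172 from the gene start, and in Sod2, as TGACCCTGC at position -35. It was in none of the other 7 members with a window, among them Nqo1 and Gclc. Sequence outside these windows was not searched, so this does not say that a gene lacks the element. Over all 33469 windows of this length, 12.1% hold that core, 7.33% an AP-1 site and 37.5% a CCAAT box. The AP-1 letters were in no member's window. The CCAAT letters occurred 5 times in the Cat window and 2 times in that of Nqo1, and also in windows of Gpx3 and Gpx4. The motifs searched do not overlap in the 5 windows shown. Such a match describes the letters in these windows and is not a binding site or a cause.

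The libraries hold 15513116 to 17218402 recovered reads each, and libraries of the same group vary well beyond counting error, with a chi-square of 17.4 to 318 per degree of freedom. Levels below are counts per 1000000 reads (CPM), scaled over the 12 libraries with TMM factors. Differences between groups are log2 fold changes with their standard error (SE) from limma, fitted to log2(deposited value + 1) over all genes of a comparison. Each adjusted p is limma's Benjamini-Hochberg value over all genes tested, and a gene rose or fell where it was at most 0.05. Scaling by library totals in place of the authors' size factors moves the median of all genes to -0.13 in treatment against model and to -0.15 in treatment against sham. Those medians are 0.02 and -0.01 with the authors' factors, so all changes are read relative to that shift.

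The groups also differ in their cell-type markers. The summed CPM of 11 erythroid genes was 416 to 5397 in treatment libraries, against 48565 to 82443 in model and 38928 to 63484 in sham libraries, and 11 of 11 fell in both treatment comparisons. The summed CPM of 10 neutrophil genes was 7.06 to 231 in treatment libraries, against 3588 to 13203 in model and 13982 to 22593 in sham libraries, and 9 of 10 fell in both. The lists for eosinophils, B cells and cell division, of 6, 7 and 7 genes, fell in full in both comparisons. Summed CPM of 8 fibroblast genes was 51357 to 133968 in treatment libraries, against 18136 to 42553 in model and 9676 to 25824 in sham libraries. Of those 8 fibroblast genes, 1 rose against model and 7 rose against sham. The 8 skeletal muscle genes summed to 109 to 47720 CPM in treatment, 58.9 to 816 in model and 1317 to 26588 in sham libraries, with 0 past the test in any comparison. Treatment 2, sham 2 and sham 4 hold the most muscle RNA, at 47720, 26588 and 24679 CPM. Of the markers that define joint tissue, the 8 chondrocyte genes were present in all groups, at 1808 to 20657 CPM in treatment, 1303 to 3393 in model and 1050 to 2076 in sham libraries. Against sham, 3 of 8 chondrocyte, 1 of 5 synovial lining, 4 of 6 endothelial and 3 of 8 macrophage genes rose and 1 macrophage gene fell, while against model 1 chondrocyte gene rose and 0 of the other 3 lists passed. Of 6 adipocyte genes, 2 fell against model and 4 against sham, and 0 of 6 osteoblast genes passed in either. In model against sham, 0 genes of the 13 marker lists passed. No gene of these lists was at 0 over a whole group. In bulk tissue, fewer cells of a type and less RNA per cell cannot be told apart, and the part of these markers in the member results below was not tested.

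**Figure D1:**
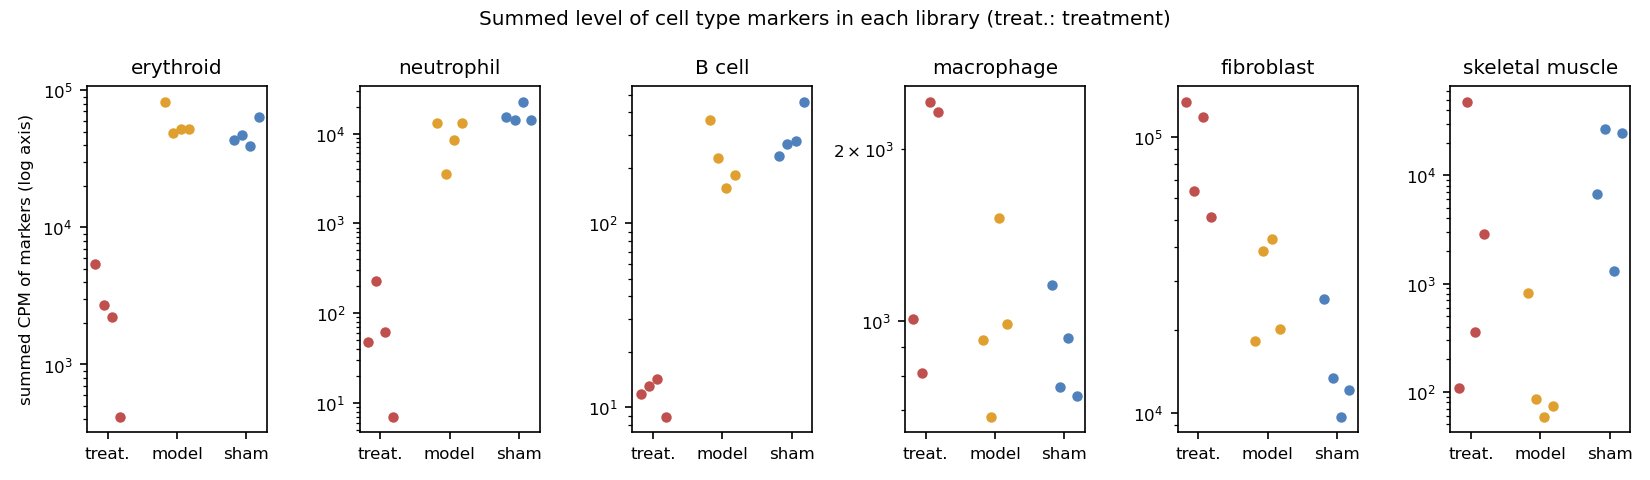
Summed TMM-scaled CPM of 6 of the cell-type marker lists, each on its own log axis, with 1 point per library in treatment, model and sham. Erythroid and neutrophil sums of all 4 treatment libraries lie below those of all model and sham libraries, and muscle sums span from 58.9 to 47720 CPM.

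In treatment against model joints, Gclm and Cat fell and Sod2 and Nqo1 rose, so 4 of 10 genes passed the test, while 14.1% of all 20328 genes did. By direction, 2 of 10 rose, against 3.6% of all genes, and 2 of 10 fell, against 10.5% of all genes. The median log2 fold change of the 10 was 0.37, against 0.02 over all genes. In 5 of 10 genes (Gclm, Gpx4, Cat, Sod2 and Nqo1) treatment and model libraries did not overlap, as in 21.9% of all genes. Without model 4 only Gclm passed (1 of 10), and without treatment 3 Gclm and Cat did (2 of 10). Over all genes those fits called 1178 of 20303 and 1579 of 20376.

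In treatment against sham joints, Gclm, Gclc, Gpx1 and Cat fell, and Sod2, Sod3 and Nqo1 rose, so 7 of 10 genes passed, while 36.8% of all 20352 genes did. By direction, 3 of 10 rose and 4 of 10 fell, against 17.3% and 19.5% of all genes. The median log2 fold change of the 10 was 0.44, against -0.01 over all genes. Treatment and sham libraries did not overlap in 4 of 10 genes (Gclc, Gclm, Gpx1 and Nqo1), as in 36.6% of all genes. The count is 2 of 10 (Gclm and Cat) without the 3 muscle-rich libraries, which leaves 3 treatment and 2 sham libraries. In that fit 4603 of all 20180 genes passed. The count of the 10 is 3 without sham 1, 2 without sham 2, 3 without sham 3, 3 without sham 4 and 3 without treatment 3. Over all genes those fits called 7571 of 20330, 6014 of 20347, 5924 of 20348, 6177 of 20355 and 6326 of 20341. In these fits the share of the 10 was below that of all genes, except without sham 3, where it was just above. The count of the 10 is 5, the highest with a library left out, without treatment 1, treatment 2 or treatment 4. There 6580 of 20327, 7826 of 20252 and 6944 of 20315 of all genes passed, so the share of the 10 stayed above. Whether that share was above thus depended on the library left out. The treatment libraries enter both comparisons, so these are not independent.

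In model against sham joints, 0 of 10 genes passed the limma test, as did 0 of all 20205 genes (0%). At an unadjusted p under 0.05, limma gave 1 of the 10 (Cat) and 2618 of all genes. Over all genes, edgeR and limma-voom also called 0 and DESeq2 called 604, Cat among them. Cat was the 1 gene of 10 with no overlap between model and sham libraries, as in 7.54% of all genes. Of the 10 log2 fold changes, 6 were positive and 4 negative, with a median of 0.13 against 0.03 over all genes.

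**Figure D2:**
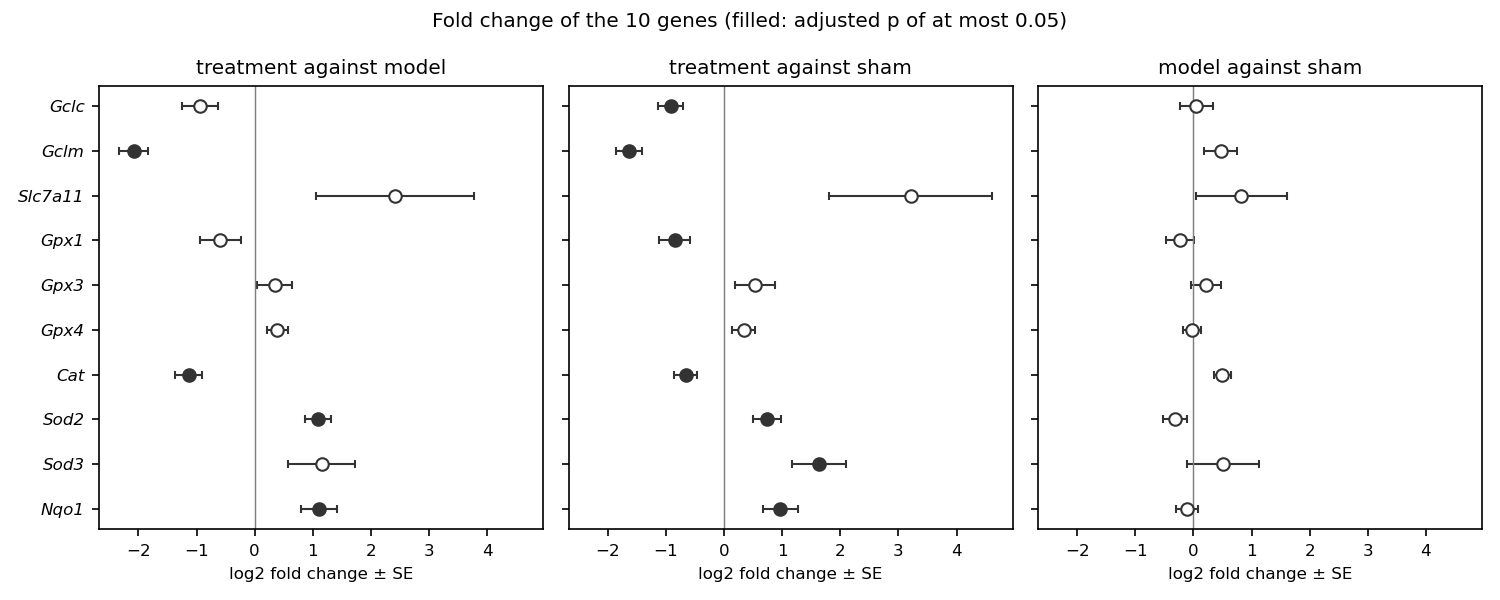
log2 fold change with SE of the 10 genes from limma, in panels for treatment against model, treatment against sham and model against sham; filled points have an adjusted p of at most 0.05. Gclm is farthest below 0 in both treatment panels (-2.08 and -1.64), and in the model against sham panel no point is filled.

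Among the genes of glutathione synthesis, Gclm showed the clearest difference. Gclm (ENSRNOG00000013409) lies on chromosome 2 at 210347482 to 210367535 on the + strand. It was at 21.6, 18.3, 16.8 and 16.8 CPM in treatment libraries 1 to 4, against 126, 53.9, 66.6 and 80.4 CPM in model and 38.4, 65.1, 55.2 and 75.0 CPM in sham libraries. All 4 treatment libraries lie below every model and sham library, and they are close to each other. Means were 18.4 ± 2.28 in treatment, 81.8 ± 31.6 in model and 58.4 ± 15.6 CPM in sham joints (SD, n = 4 each). Gclm fell 4.22-fold against model (log2 fold change -2.08, SE 0.25, limma adjusted p = 0.00210) and 3.11-fold against sham (-1.64, SE 0.22, limma adjusted p = 0.000516). Both calls held with each library left out, with adjusted p of 0.000928 to 0.0123 against model and 0.000165 to 0.00282 against sham. The summed erythroid markers of libraries 1 to 4 were 5397, 2700, 2201 and 416 CPM in treatment, 82443, 48565, 52122 and 52136 CPM in model and 43365, 47030, 38928 and 63484 CPM in sham. Treatment 1, model 1 and sham 4 had the highest erythroid sum of their group and also its highest Gclm level. The osteoblast sum was highest in the same libraries, at 2262, 1668 and 1274 CPM. The part of these markers in the Gclm result was not tested. Between model and sham, Gclm differed by 0.47 (SE 0.29, limma adjusted p = 0.493), with overlapping libraries.

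Gclc (ENSRNOG00000006302, chromosome 8, 78630127 to 78668544, + strand), which holds the active site of the ligase, moved less. It was at 70.4, 42.2, 64.8 and 67.6 CPM in treatment libraries, against 191, 66.4, 116 and 124 CPM in model and 88.5, 128, 115 and 127 CPM in sham libraries. Treatment libraries are all below the sham libraries, and treatment 1 and treatment 4 lie just above model 2. Gclc fell against sham (-0.92, SE 0.21, limma adjusted p = 0.00755), a call that held with each library left out but not without the 3 muscle-rich libraries (adjusted p = 0.0834). Against model it did not pass (-0.94, SE 0.31, limma adjusted p = 0.0729). That value is 0.0144 without model 2 alone, 0.0493 when libraries are scaled by totals, 0.0169 with DESeq2 and 0.0147 with limma-voom. Gclc in model against sham differed by 0.05 (SE 0.28, limma adjusted p = 0.951).

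The balance between the subunits was read within each library from reads of Gclm per read of Gclc. It was 0.307, 0.433, 0.259 and 0.248 in treatment libraries, against 0.662, 0.812, 0.576 and 0.647 in model and 0.433, 0.509, 0.481 and 0.591 in sham libraries. All treatment libraries lie below all model libraries, and treatment 2 reaches the lowest sham library. On the log2 scale the ratio averaged -1.71 ± 0.37 in treatment, -0.58 ± 0.21 in model and -0.998 ± 0.19 in sham (SD, n = 4 each). The difference between treatment and model was -1.13 (two-sided exact permutation test over 70 assignments, p = 0.0286, which is its floor, and 0.129 adjusted over 9 ratio comparisons). Against sham it was -0.72 for treatment and 0.42 for model (exact permutation p = 0.0571 each, adjusted 0.129 each). None of the 9 ratio comparisons passed after adjustment. With 4 libraries in a group, an adjusted value of at most 0.05 needs several comparisons at the floor. A single ratio could therefore not pass even with fully separated libraries, and no conclusion is drawn from the adjusted values.

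**Figure D3:**
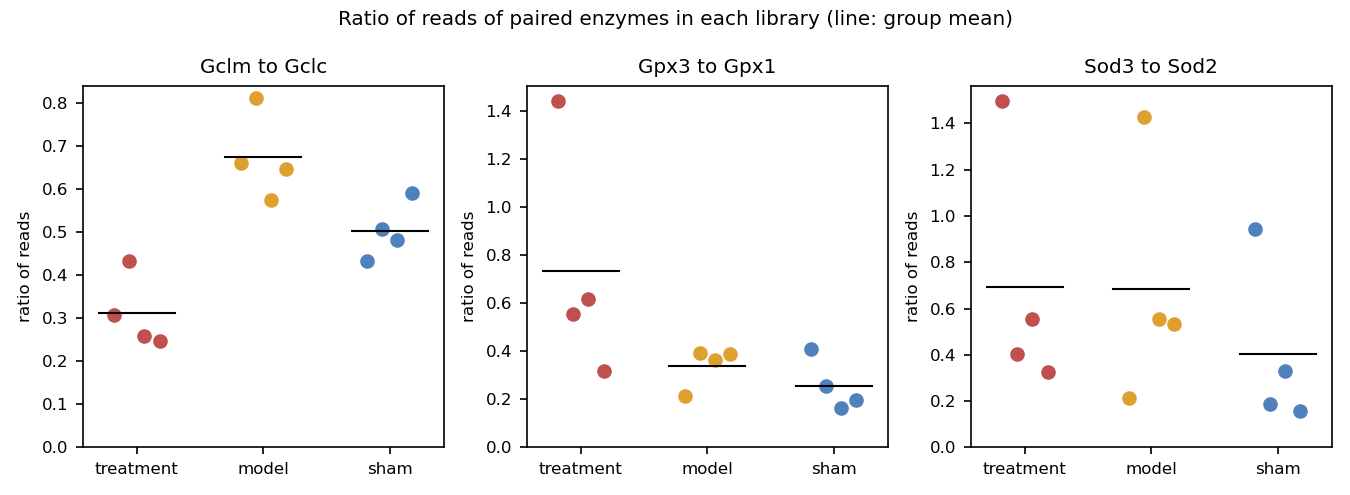
Ratio of reads of Gclm to Gclc, Gpx3 to Gpx1 and Sod3 to Sod2, on linear axes from 0, with 1 point per library of treatment, model and sham and a line at the group mean. For Gclm to Gclc, all treatment points lie below all model points.

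Slc7a11 (ENSRNOG00000010210, chromosome 2, 133963107 to 134517536, - strand), the cystine carrier, was near the limit of detection in most libraries. It had 10, 29, 469 and 977 reads in treatment libraries, against 11, 21, 70 and 12 reads in model and 15, 11, 36 and 3 reads in sham libraries. In CPM that is 0.659, 2.01, 29.6 and 57.5 in treatment, 0.702, 1.23, 4.28 and 0.699 in model, and 0.879, 0.632, 2.16 and 0.174 in sham. Treatment 3 and treatment 4 stand far above all other libraries, and treatment 1 lies among the lowest. The difference did not pass against model (2.41, SE 1.36, limma adjusted p = 0.262) or against sham (3.21, SE 1.41, limma adjusted p = 0.110). DESeq2 called both (log2 fold changes 3.70 and 4.55, adjusted p = 0.00683 and 0.000136), edgeR called the one against sham (4.54, adjusted p = 0.0377), and limma did so without treatment 1 (4.31, adjusted p = 0.0287). The 8 macrophage markers summed to 1008, 812, 2421 and 2324 CPM in treatment libraries 1 to 4, with treatment 3 and treatment 4 again the highest of the group. Cell division markers were also highest in those libraries, at 86.3, 68.7, 133 and 138 CPM. In model the macrophage sum (1518 CPM) and Slc7a11 were both highest in model 3, while the cell division sum was highest in model 1 (2746 CPM). In sham the macrophage sum was highest in sham 1 (1158 CPM), while Slc7a11 was highest in sham 3. The part of these markers in the result was not tested. Between model and sham Slc7a11 differed by 0.83 (SE 0.78, limma adjusted p = 0.648).

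**Figure D4:**
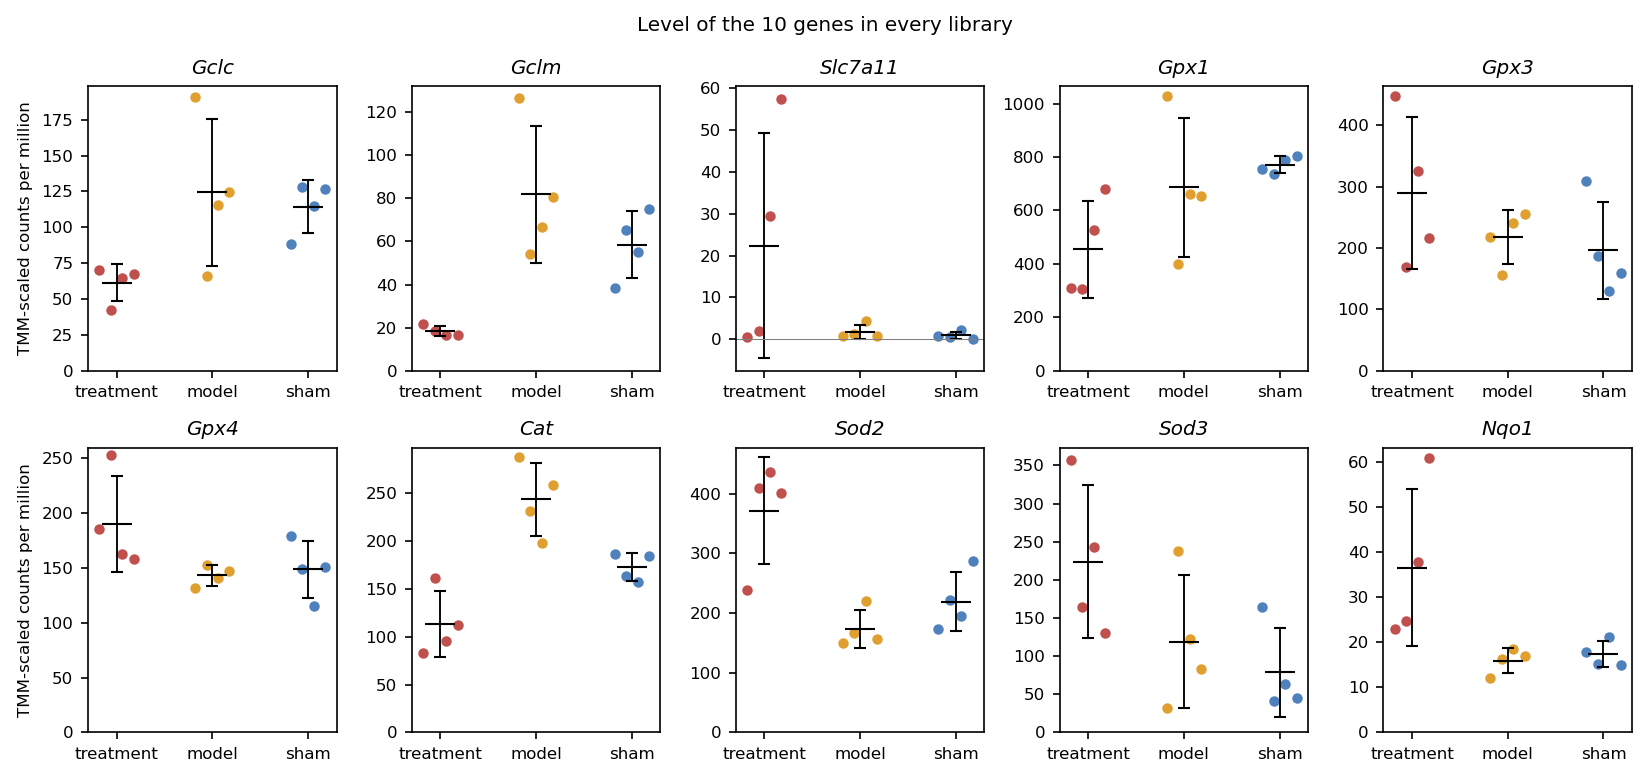
TMM-scaled CPM of each of the 10 genes in each library of treatment, model and sham, with group mean and SD, and an axis for each gene. Gclm and Cat are lower in treatment than in model libraries without overlap, Sod2 and Nqo1 are higher without overlap, and Slc7a11 is high in treatment 3 and treatment 4 alone (29.6 and 57.5 CPM).

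Of the peroxidases, Gpx1 fell against sham, and Gpx3 and Gpx4 did not pass with limma in any comparison. Gpx1 (ENSRNOG00000048812, chromosome 8, 109026905 to 109028024, + strand) encodes the main glutathione peroxidase inside the cell. It was at 311, 305, 528 and 679 CPM in treatment libraries, against 1028, 399, 663 and 656 CPM in model and 757, 736, 789 and 806 CPM in sham libraries. Sham libraries lie close together, at 772 ± 31.1 CPM (SD, n = 4), above all treatment libraries, and model libraries span both. Gpx1 fell 1.80-fold against sham (-0.85, SE 0.26, limma adjusted p = 0.0307), and against model it did not pass (-0.59, SE 0.35, limma adjusted p = 0.282). The call against sham was lost with edgeR (adjusted p = 0.0596), without the 3 muscle-rich libraries (0.214), and without any one of sham 1, sham 2, sham 3, sham 4, treatment 1 or treatment 2 (0.0514 to 0.0791). Model against sham differed by -0.23 (SE 0.24, limma adjusted p = 0.675).

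Gpx3 (ENSRNOG00000052564, chromosome 10, 39028570 to 39037035, + strand) encodes the secreted, plasma form of the peroxidase, although the authors' table gives this gene the biotype lncRNA. It was at 447, 170, 326 and 217 CPM in treatment libraries, against 219, 156, 241 and 256 CPM in model and 309, 187, 130 and 159 CPM in sham libraries. The 3 groups overlap, and treatment 1 is the highest library. The differences were 0.34 (SE 0.30, limma adjusted p = 0.473) against model and 0.53 (SE 0.34, limma adjusted p = 0.262) against sham. With limma-voom Gpx3 passed against sham (0.77, adjusted p = 0.0275). Model against sham differed by 0.22 (SE 0.26, limma adjusted p = 0.719).

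Reads of Gpx3 per read of Gpx1, the secreted form set against the form inside the cell, were 1.44, 0.557, 0.616 and 0.320 in treatment libraries, against 0.213, 0.392, 0.364 and 0.390 in model and 0.409, 0.254, 0.165 and 0.198 in sham libraries. Treatment 1 was the only library with more reads of Gpx3 than of Gpx1. The log2 ratio differed by 0.93 between treatment and model (exact permutation p = 0.114, adjusted 0.206) and by 1.39 between treatment and sham (exact permutation p = 0.0571, adjusted 0.129). Model against sham differed by 0.45 (exact permutation p = 0.286, adjusted 0.367). Summed fibroblast markers over the same treatment libraries were 133968, 63395, 117790 and 51357 CPM, also highest in treatment 1. Erythroid, chondrocyte and osteoblast sums were highest in treatment 1 as well, at 5397, 20657 and 2262 CPM. The part of these markers in the result was not tested.

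Gpx4 (ENSRNOG00000013604, chromosome 7, 9650185 to 9652982, - strand) reduces lipid peroxides in membranes and is known for guarding cells against ferroptosis. It was at 185, 253, 162 and 158 CPM in treatment libraries, against 131, 153, 141 and 147 CPM in model and 179, 149, 116 and 151 CPM in sham libraries. All treatment libraries are above all model libraries by a small margin, and treatment 2, rich in muscle RNA, is the highest. The differences were 0.39 (SE 0.18, limma adjusted p = 0.177) against model and 0.34 (SE 0.19, limma adjusted p = 0.207) against sham, so neither passed. Model against sham differed by -0.03 (SE 0.15, limma adjusted p = 0.947).

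Cat (ENSRNOG00000008364, chromosome 3, 89842399 to 89874478, - strand) encodes catalase, the peroxisomal enzyme that breaks down hydrogen peroxide, and it fell in both treatment comparisons. It was at 82.8, 161, 96.0 and 112 CPM in treatment libraries, against 287, 231, 198 and 259 CPM in model and 186, 163, 158 and 185 CPM in sham libraries. Treatment libraries are all below the model libraries, and all model libraries are above all sham libraries. Against sham, only treatment 2 overlaps. Cat fell 2.19-fold against model (-1.13, SE 0.23, limma adjusted p = 0.0147) and 1.58-fold against sham (-0.66, SE 0.20, limma adjusted p = 0.0291). The call against model was lost without model 4 (adjusted p = 0.0554). The call against sham was lost with edgeR (0.0503) and without any one of sham 1, sham 2, sham 3, sham 4, treatment 1, treatment 3 or treatment 4 (0.0522 to 0.0790), but held without the 3 muscle-rich libraries (-0.81, adjusted p = 0.0329). In model against sham Cat was 0.50 higher on the log2 scale (SE 0.14), which did not pass with limma (adjusted p = 0.283; 0.134 to 0.553 with each library left out) and passed with DESeq2 (0.51, adjusted p = 0.0347). Its order over the groups, with treatment lowest and model highest, is that of the means 113 ± 34.4, 244 ± 38.4 and 173 ± 14.6 CPM in treatment, model and sham.

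Both superoxide dismutases rose in treatment joints in at least 1 comparison. Sod2 (ENSRNOG00000019048, chromosome 1, 47636528 to 47645189, - strand) encodes the manganese enzyme of mitochondria. It was at 239, 410, 436 and 402 CPM in treatment libraries, against 150, 166, 221 and 156 CPM in model and 174, 221, 195 and 287 CPM in sham libraries. All treatment libraries are above the model libraries, and treatment 1 lies within the sham range. Sod2 rose 2.12-fold against model (1.09, SE 0.23, limma adjusted p = 0.0165) and 1.67-fold against sham (0.74, SE 0.24, limma adjusted p = 0.0352). The call against model was lost without model 4 (adjusted p = 0.0628) and without treatment 3 (0.0522). The call against sham was lost with library-total scaling (0.0782), without the 3 muscle-rich libraries (0.0686), and without any one of sham 1, sham 2, sham 3, treatment 2, treatment 3 or treatment 4 (0.0636 to 0.0945). In model against sham it differed by -0.32 (SE 0.20, limma adjusted p = 0.504).

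Sod3 (ENSRNOG00000003869, chromosome 14, 58609958 to 58615990, - strand) encodes the enzyme that is secreted and held in the matrix outside cells. It was at 357, 165, 242 and 130 CPM in treatment libraries, against 32.2, 238, 123 and 82.9 CPM in model and 164, 41.3, 64.1 and 45.1 CPM in sham libraries. The groups overlap, since model 2 and sham 1 reach into the treatment range. Sod3 rose 3.11-fold against sham (1.63, SE 0.46, limma adjusted p = 0.0222). Against model it did not pass (1.15, SE 0.58, limma adjusted p = 0.209). The call against sham was lost without the 3 muscle-rich libraries (adjusted p = 0.176) and without any one of sham 2, sham 3, sham 4, treatment 1 or treatment 3 (0.0539 to 0.0623). Of the 8 fibroblast markers 7 rose in the same comparison. So did 4 of 6 endothelial and 3 of 8 chondrocyte genes, among the other lists given above. Sod3 was highest in treatment 1, model 2 and sham 1 of their groups. The fibroblast sum was highest in treatment 1, model 3 and sham 1, and the endothelial sum in treatment 2, model 2 and sham 1. The part of these markers in the result was not tested. Model against sham differed by 0.51 (SE 0.63, limma adjusted p = 0.728).

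Reads of Sod3 per read of Sod2 were 1.49, 0.403, 0.556 and 0.324 in treatment libraries, against 0.214, 1.43, 0.556 and 0.532 in model and 0.945, 0.187, 0.329 and 0.157 in sham libraries. Each group holds 1 library, treatment 1, model 2 or sham 1, far above its other 3. The log2 ratio differed by 0.07 between treatment and model, by 0.89 between treatment and sham and by 0.83 between model and sham (exact permutation p = 0.886, 0.286 and 0.371, adjusted 0.886, 0.367 and 0.418).

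Nqo1 (ENSRNOG00000012772, chromosome 19, 35295573 to 35310557, - strand), the quinone reductase often read as an indicator gene of Nrf2 activity, rose in both treatment comparisons. It was at 22.9, 24.7, 37.7 and 60.7 CPM in treatment libraries, against 11.998, 16.2, 18.5 and 16.9 CPM in model and 17.9, 15.2, 21.2 and 14.9 CPM in sham libraries. All treatment libraries are above all model and sham libraries, by little in treatment 1 and treatment 2 and by more in treatment 3 and treatment 4. Nqo1 rose 2.16-fold against model (1.11, SE 0.31, limma adjusted p = 0.0472) and 1.96-fold against sham (0.97, SE 0.30, limma adjusted p = 0.0311). Both calls are near the threshold. Against model the call was lost with library-total scaling (adjusted p = 0.0973) and without any one of the 4 model libraries, treatment 3 or treatment 4 (0.0584 to 0.117). Against sham it was lost with library-total scaling (0.0798), without the 3 muscle-rich libraries (0.140), and without any one of sham 1, sham 2, sham 4 or treatment 3 (0.0572 to 0.0786). Model against sham differed by -0.11 (SE 0.19, limma adjusted p = 0.807).

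Levels of different genes are compared per kilobase of the authors' gene length, as RPKM (CPM per kilobase). Gpx1 was the most abundant of the 10 in every group, at 505 in treatment, 760 in model and 855 RPKM in sham, followed by Gpx4 at 166, 125 and 130 RPKM, with no overlap between the 2 genes in any group. Slc7a11 was the lowest, at 4.97, 0.383 and 0.213 RPKM. Between them the order changed with the group. In treatment joints it ran Sod3, Gpx3, Sod2, Cat, Nqo1, Gclc, Gclm (111, 107, 95.7, 47.5, 21.6, 20.1 and 12.4 RPKM), and libraries of each gene overlapped those of the next. In model joints it ran Cat, Gpx3, Sod3, Gclm, Sod2, Gclc, Nqo1 (102, 80.2, 58.8, 55.1, 44.7, 40.8 and 9.38 RPKM), and in sham joints Cat, Gpx3, Sod2, Gclm, Sod3, Gclc, Nqo1 (72.7, 72.3, 56.5, 39.3, 38.9, 37.6 and 10.2 RPKM). Apart from Gpx1 and Gpx4, neighbours without overlap were Gclc and Nqo1, and Nqo1 and Slc7a11, in both model and sham, and Gpx4 and Cat in sham. Nqo1 ranked below Gclc and Gclm in model and sham and above both in treatment. The levels of Slc7a11 per kilobase rest on an annotated gene length that was not checked against the reads.

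The wider pathway was read from 7 lists. Of their 86 genes 83 were found by symbol, and Ggt5, Gpx6 and Pgd had no match. In treatment against model 20 of 83 passed (24.1%, 8 higher and 12 lower), with a median log2 fold change of 0.15. That count is 11 without treatment 3, 13 without treatment 4, 13 without model 3, 11 without model 4 and 36 with limma-voom. Over all genes, of 20303 to 20376 tested, those fits called 1579, 1890, 1907, 1178 and 5650. In treatment against sham 46 of 83 passed (55.4%, 21 higher and 25 lower), with a median of 0.03. In model against sham 0 of 82 passed with limma (13 at an unadjusted p under 0.05), while DESeq2 called 3 and limma without model 1 called 1. Besides the genes given below, the smallest p of a list in model against sham was that of Slc1a1 (1.38), Mgst2 (-0.34), Prdx6 (-0.41), Msrb1 (-0.86) or Mafg (-0.27), and of these Prdx6 passed with DESeq2 (adjusted p = 0.0327). Against the background of 14.1%, 36.8% and 0% of all genes, these are counts over chosen genes and not a test of the pathway.

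**Figure D5:**
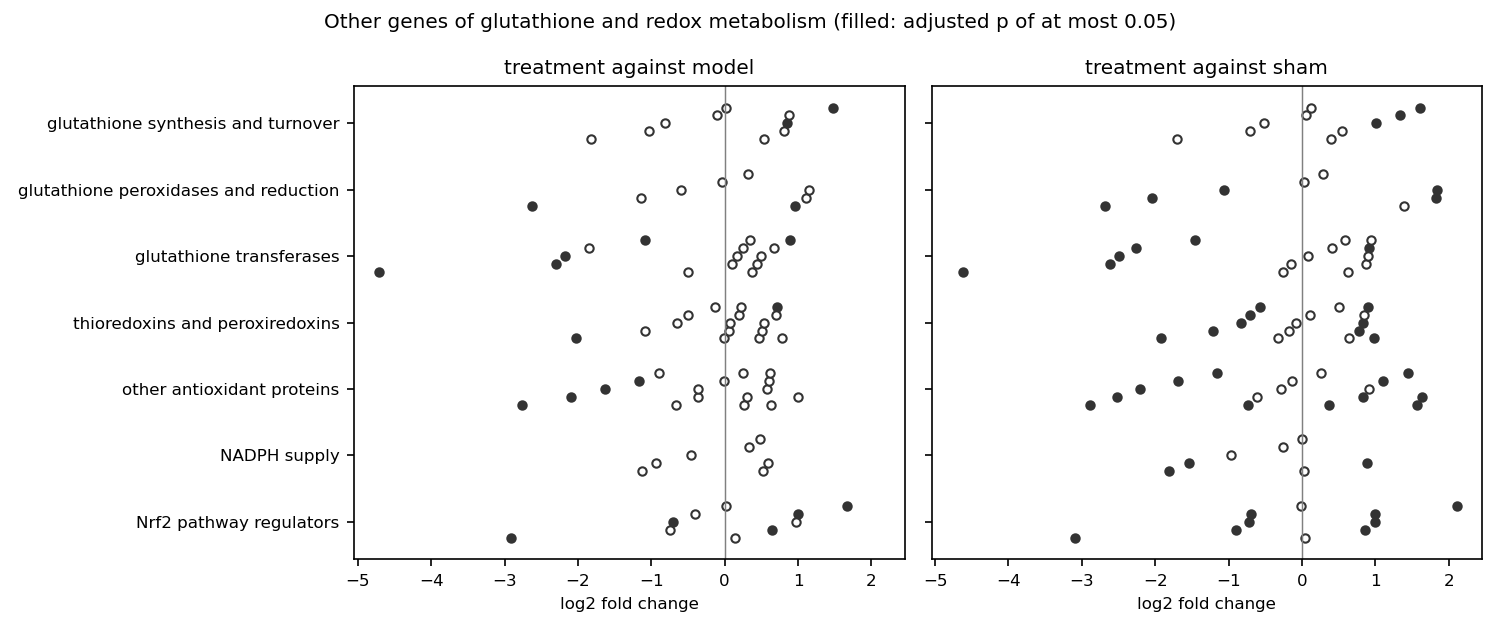
log2 fold change from limma of each gene of the 7 wider lists (1 point per gene, spread vertically for legibility), in treatment against model and treatment against sham; filled points have an adjusted p of at most 0.05. Filled points lie on both sides of 0 in 4 lists against model, and NADPH supply has 0 there.

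Of 10 genes of glutathione synthesis and turnover, 2 rose against model and 0 fell. They were Gss, the enzyme of the last synthesis step, at 26.6 ± 3.37 CPM in treatment and 15.0 ± 3.39 CPM in model (0.85, SE 0.20, limma adjusted p = 0.0274), and Anpep, a surface aminopeptidase, at 527 ± 234 and 179 ± 43.0 CPM (1.47, SE 0.34, limma adjusted p = 0.0242). So Gss rose in the comparison in which Gclm fell. Both calls were lost without treatment 3, treatment 4, model 1 or model 4, and that of Gss also without model 3 (adjusted p = 0.0542 to 0.0866 over both genes) and with library-total scaling (0.0584). Against sham 3 of 10 rose and 0 fell, with Anpep (1.60) and Ggt7 (1.34), of the gamma-glutamyltransferase family, leading. Ggt7 did not pass without the 3 muscle-rich libraries (adjusted p = 0.109).

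Of 8 genes of the peroxidase and glutathione reduction list, 1 rose and 1 fell against model. Gpx8, a peroxidase of the endoplasmic reticulum, was at 65.6 ± 15.0 CPM in treatment and 34.4 ± 9.79 CPM in model (0.96, SE 0.26, limma adjusted p = 0.0404), a call lost in 7 of 8 fits with a library left out, all but that without model 2 (adjusted p = 0.0503 to 0.107), and with library-total scaling (0.0731). Glrx5, a mitochondrial glutaredoxin of iron-sulphur cluster assembly, fell (-2.62, SE 0.43, limma adjusted p = 0.00621). Against sham 2 rose, Gpx8 (1.84) and Gpx7 (1.82), and 3 fell, led by Glrx5 (-2.68) and Glrx (-2.04). Gpx8 also had the smallest p of this list in model against sham (0.90, SE 0.25, limma adjusted p = 0.272), and it passed there with DESeq2 (0.95, adjusted p = 0.0269) and with limma without model 1 (1.13, adjusted p = 0.0366).

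Of 15 glutathione transferases, 1 rose and 4 fell against model. Gsto1 rose (0.89, SE 0.16, limma adjusted p = 0.0100), while Gsta4 (-4.71, SE 0.88, limma adjusted p = 0.0104) and Mgst1, a membrane-bound transferase (-2.30, SE 0.30, limma adjusted p = 0.00252), fell. Against sham 1 rose and 5 fell, with the same 3 genes named at 0.91, -4.62 and -2.62. Gsta4 averaged 1.14 CPM in treatment, against 17.9 in model and 15.0 in sham libraries.

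Of 16 thioredoxins and peroxiredoxins, 1 rose and 1 fell against model, in opposite directions within the peroxiredoxin family. Prdx1 was at 210 ± 49.8 CPM in treatment and 127 ± 17.3 CPM in model (0.71, SE 0.19, limma adjusted p = 0.0398), a call lost without treatment 3, treatment 4 or any one of the 4 model libraries (0.0548 to 0.124), with library-total scaling (0.118) and with edgeR (0.0506). Prdx2, abundant in red cells, was at 125 ± 25.3 CPM in treatment and 535 ± 206 CPM in model (-2.03, SE 0.29, limma adjusted p = 0.00342). Against sham 4 rose, led by Sesn3 (0.98) and Prdx1 (0.90), and 5 fell, led by Prdx2 (-1.92) and Prdx3 (-1.21), the call of Prdx3 being lost with 6 of 8 libraries left out in turn (all but treatment 2 and sham 1, adjusted p = 0.0568 to 0.0685) and with edgeR (0.0569).

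Of 17 other antioxidant proteins, 0 rose and 4 fell against model, with Ucp2, a mitochondrial carrier (-2.76, SE 0.49, limma adjusted p = 0.00861), and Blvrb, a biliverdin reductase of red cells (-2.09, SE 0.39, limma adjusted p = 0.0103), lowest. Against sham 6 rose and 6 fell. Selenop, the selenium transport protein, was at 903 ± 166 CPM in treatment and 310 ± 95.9 CPM in sham (1.56, SE 0.22, limma adjusted p = 0.000586), and Msrb1, a methionine sulphoxide reductase, was at 38.2 ± 9.13 and 216 ± 34.8 CPM (-2.52, SE 0.20, limma adjusted p = 2.95e-05). The metallothionein Mt2A (1.64, limma adjusted p = 0.0489) lost its call in all fits with a library left out but that without treatment 4 (0.0523 to 0.1201), without the 3 muscle-rich libraries (0.196), with library-total scaling (0.0647) and with no filter (0.0530).

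Of 7 genes of NADPH supply, 0 passed against model, where Tkt, of the pentose phosphate pathway, had the smallest p (-1.12, SE 0.38, limma adjusted p = 0.0850). Tkt passed with DESeq2 (adjusted p = 0.0460) and limma-voom (0.0408). Against sham 1 rose, cytosolic Idh1 (0.89, SE 0.20, limma adjusted p = 0.00667), and 2 fell, the pentose phosphate genes Tkt (-1.81, SE 0.33, limma adjusted p = 0.00237) and Taldo1 (-1.54, SE 0.30, limma adjusted p = 0.00335). Idh1 did not pass without the 3 muscle-rich libraries (adjusted p = 0.0972). Idh2 had the smallest p of the 7 in model against sham (-0.57, SE 0.13, limma adjusted p = 0.209) and passed with DESeq2 (-0.57, adjusted p = 0.00363).

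Of 10 regulators around Nrf2, 3 rose and 2 fell against model. Sqstm1, an adaptor that binds the Nrf2 inhibitor Keap1, was at 481 ± 83.9 CPM in treatment and 239 ± 19.9 CPM in model (1.005, SE 0.17, limma adjusted p = 0.00714). Maff, a small Maf partner of Nrf2, rose (1.67, SE 0.45, limma adjusted p = 0.0433), and so did Nfe2l2 itself, at 129 ± 28.2 CPM in treatment and 81.4 ± 8.41 CPM in model (0.65, SE 0.18, limma adjusted p = 0.0427). Nfe2l2 was named outside the rule, after its values were seen, because it encodes Nrf2. Bach2, a repressor known from B cells, fell (-2.91, SE 0.47, limma adjusted p = 0.00614), as did Mafk (-0.70, SE 0.20, limma adjusted p = 0.0479). The call of Maff was lost with library-total scaling (adjusted p = 0.0634) and without treatment 1, treatment 3, treatment 4, model 3 or model 4 (0.0585 to 0.103). That of Nfe2l2 was lost with library-total scaling (0.140) and without treatment 3, treatment 4 or any one of the 4 model libraries (0.0572 to 0.119). That of Mafk was lost with edgeR (0.0546), with no filter (0.0557) and with any library but model 2 left out (0.0687 to 0.148). Against sham 4 rose, among them Maff (2.11), Sqstm1 (1.001) and Nfe2l2 (0.86, SE 0.19, limma adjusted p = 0.00655), and 4 fell, among them Bach2 (-3.09) and Bach1 (-0.90), the repressor of many Nrf2 targets. Without the 3 muscle-rich libraries Nfe2l2 (adjusted p = 0.0507) and Bach1 (0.184) did not pass, and Bach1 was also lost with edgeR (0.0504) and without treatment 1, sham 2, sham 3 or sham 4 (0.0774 to 0.0985). All 7 B cell markers also fell in both comparisons, and their part in the Bach2 result was not tested.

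Over the 12 libraries, the gene whose centred log2(CPM + 1) profile was nearest to that of Gclm, among 11570 genes with a mean of at least 5 CPM, was Phf7 (root-mean-square distance 0.150, while the profile of Gclm itself had a root-mean-square of 0.94). Cdkn2c and Cdr2 followed at 0.155 and 0.175. Nearest to Gclc were Eef1e1, Pabpc1 and Suco (0.115, 0.146 and 0.159), and nearest to Gpx1 were Mob3c, Rel and Stat5a (0.127, 0.136 and 0.139). For Nqo1 they were Rufy1, Txnrd1 and Npc1 (0.164, 0.177 and 0.200), of which Txnrd1, thioredoxin reductase, is on the lists above. For Sod2 they were Rtn4, Nkiras1 and Spryd7 (0.239, 0.247 and 0.251), for Sod3 Galnt18, Hspg2 and Kif26a (0.240, 0.251 and 0.269), for Cat Pla2r1, Ppp1r13b and Ubqln4 (0.226, 0.233 and 0.256), and for Gpx3 Zfp862, Zbtb7c and Srgap1 (0.213, 0.227 and 0.232). The root-mean-square of the gene's own profile was 0.57 for Gclc, 0.53 for Gpx1, 0.59 for Nqo1 and 0.53 for Sod2. It was 1.06 for Sod3, 0.52 for Cat and 0.49 for Gpx3. Set against these, the nearest genes of Sod2, Cat and Gpx3 are loose matches. None of the 10 genes was among the 3 nearest of these 8, and the nearest of Gpx4 and Slc7a11 were not sought. These distances describe 12 libraries that share the group differences in cell-type markers given above.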

How the data were processed

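RNA of rat joint tissue was measured by RNA-seq in 12 libraries, with RNA extracted with Trizol and libraries made with a VAHTS Universal V5 kit, per the labels' protocols. The submitters' processing notes name the build mRatBN7.2, fastp and DESeq2, without versions. Which aligner, counter and annotation were used, and whether strand counted, is not given in the sources used here. Of the files the authors deposited, 3 full tables with 8 libraries each were used, and the deposited expression values are a normalised signal: read counts divided by a size factor for each library, set within the table. Whole reads were recovered from the deposited values, since 100% of a library's values are multiples of 1 step, within 0.001 reads. For treatment 3 the table of treatment and sham libraries gave the reads, also where count tests compared treatment with model. The limma fit of that comparison used the treatment 3 values deposited with the model libraries. Whether those values match the reads used elsewhere is not given here. One emptied line in each table was left out.

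Each comparison was tested within its own table with limma 3.58.1 in R 4.3.3 (trend and robust options) on log2(value + 1), keeping genes whose value averages 1 or more. p-values were adjusted by Benjamini-Hochberg over all genes, with calls at 0.05. The fits were also run on simulated counts in which a small set of well-measured genes was raised by large folds. That simulation held no falls and no wide difference between groups, so it does not bear on the calls given here. A fold change on the log2(value + 1) scale understates the change of low genes. The count tests were run on recovered reads with edgeR 4.0.16 and DESeq2 1.42.0 as alternatives, besides limma-voom with quality weights, pseudocounts of 0.5 and 5, no filter or a minimum of 10, TMM or library-total scaling, a replicate block, each library left out in turn, and the 3 muscle-rich libraries left out. Library-total scaling was added after seeing the data. Ratios of reads were compared with a two-sided exact permutation test. CPM and RPKM were computed from recovered reads with TMM factors and the authors' gene lengths.

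The 10 genes, the wider lists and the marker lists were chosen with earlier results of these data known. All 10 genes are named in each comparison. Of each wider list, the named genes are the 2 with the highest and the 2 with the lowest log2 fold change past the test, or the gene with the smallest p where none passed. Nfe2l2 and Sod1 are named outside this rule, after their values were seen. For 8 of the 10 genes, the 3 genes with the nearest profile are named. Promoter windows are from RefSeq in GRCr8, matched by symbol, and measurements are given on mRatBN7.2 as in the authors' tables. Genes with close copies or antisense partners cannot be told apart without the counting method and strand.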

Additional observations from a re-analysis of the deposited data

Results flagged for a closer look

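Slc7a11 in model 3 was the 1 value flagged, because it lies far from the other libraries of its group. It was at 4.28 CPM in model 3, against 0.699 to 1.23 CPM in the other 3 model libraries, and the gap to the nearest of them is 0.853 of the whole range of the group. Over the 30 groups tested (10 genes in 3 groups of 4), chance gives 1.5 such flags, about 1 in 20 groups.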

How the results depend on the processing

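Genes past the test numbered 604 with DESeq2 and 0 to 171 with a library left out in model against sham; 4956 with DESeq2, 5650 with limma-voom and 1178 to 4146 with a library left out in treatment against model; and 4603 without the 3 muscle-rich libraries and 5924 to 7826 with a library left out in treatment against sham. Members past the test numbered 1 with DESeq2 and 0 to 0 with a library left out in model against sham, 1 to 4 with a library left out in treatment against model, and 2 without the muscle-rich libraries and 2 to 5 with a library left out in treatment against sham. With library-total scaling calls were 340 higher and 2731 lower in treatment against model (731 and 2139 with the authors' factors), and 2792 higher and 4581 lower in treatment against sham (3524 and 3961).

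No member that passed a test reversed under any alternative run. In model against sham, where no member passed, signs turned for Gclc (-0.0164) and Nqo1 (0.00774) with limma-voom, for Slc7a11 (-0.0634), Gpx4 (0.0344), Sod3 (-0.0819) and the log2 ratio of Sod3 to Sod2 (-0.0239) without the muscle-rich libraries, and with a library left out for Gclc (-0.18 to 0.30), Gpx4 (-0.147 to 0.049998) and Nqo1 (-0.191 to 0.0249). The log2 ratio of Sod3 to Sod2 in treatment against model ran from -0.39 to 0.53 with a library left out. The causes were not tested. Of the member fold changes under alternatives, 502 kept direction and side of the threshold, 47 lost a call, 11 gained one and 10 turned sign.

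The deviations of libraries with the same replicate number correlated at -0.04 to 0.49 in treatment against sham (3 of 4 pairs above 0.1), -0.22 to 0.30 in treatment against model and -0.65 to 0.16 in model against sham, over 12460 genes. Since not every pair of a comparison was above 0.1, the numbers were not taken to pair the libraries. With the replicate number as a block, 2204 genes passed in treatment against model, 6771 in treatment against sham and 0 in model against sham. Among the members the block changed 1 call, Gclc in treatment against model (adjusted p = 0.0287). Among the named genes of the wider lists it ended the calls of Gpx8, Prdx1, Maff, Mafk and Nfe2l2 (0.0589 to 0.112) and gave one to Tkt (0.0461), all in treatment against model.

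Depth limits Slc7a11, with 3 to 977 reads in a library, more than any other member.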
